A study of Mus musculus with 16 samples.

Results

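The 47 genes described here encode extracellular matrix: collagens, adhesive glycoproteins, elastic fibre proteins, proteoglycans, and the enzymes that cross-link or cut them. They are the probes whose RefSeq accession on the array belongs to a listed matrix gene. This rule uses no measured value, but the list was chosen with earlier results of these data known. All 47 listed genes were found among the 21368 genes with a RefSeq symbol on the array. The brightest probe, by its mean level over the 16 arrays, stood for each gene. They were measured in 16 primary cultures of C57BL/6 mouse cortex, 4 per group. Neurons came from embryos of day 16 and were kept 14 days in vitro. Astrocytes came from pups of postnatal days 0 to 5 by the culture protocol, although their stage label also reads E16. Meninges were removed from the pup cortices, and the flasks grew in serum and were shaken for 15 h toward a stated purity above 98%, whereas the neurons grew in Neurobasal with B27. Cultures of both cell types received either the PBS vehicle or 1 nM recombinant secreted Klotho, a hormone-like protein, for 24 h. The labels do not say whether the 4 samples of a group came from separate cultures or animals, so the p-values speak to the scatter among these samples alone, which may be technical.

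The matrix is a meshwork of fibres and gels that cells secrete around themselves. Fibrillar collagens give tensile strength, basement membrane collagens and laminins form sheets at the pial surface and around vessels, and matricellular proteins tune adhesion and growth factor signalling. The brain parenchyma holds little fibrillar collagen. Its own matrix is rich in hyaluronan bound by the lecticans, proteoglycans that form perineuronal nets around certain neurons.

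Levels are log2 processed intensities relative to the 75th percentile of the transcript probes of the same array, so 0 is that percentile, and they are not compared between probes. Of the spots, 57.5% to 67.3% per array were well above background, by the scanner software's flag, and none was saturated. The neuron marker Tubb3 averaged 5.77 ± 0.22 (SD, n = 4) in neuron vehicle and -0.89 ± 1.08 in astrocyte vehicle cultures, and the neuronal nuclear protein Rbfox3 averaged 4.64 ± 0.29 and -4.73 ± 0.54. The astrocyte markers Gfap and Aqp4, a water channel, went the other way. Gfap averaged 0.21 ± 1.03 and 5.96 ± 0.46, and Aqp4 averaged 1.66 ± 0.19 and 4.65 ± 0.57. Over the full lists, all 11 neuron markers averaged lower and 9 of 10 astrocyte markers higher in astrocyte than in neuron vehicle cultures. Snap25 of the neuron list was almost equal, at 5.09 ± 0.10 and 5.01 ± 1.53. Slc1a2 of the astrocyte list was lower in astrocytes, at 0.71 ± 0.19 and 0.32 ± 0.19. All 10 astrocyte markers were above background in both cultures, with a list mean of 1.76 to 2.68 per neuron array and 3.95 to 4.69 per astrocyte array. The 10 microglia markers averaged -2.92 to -1.42 on the neuron arrays and 2.33 to 3.37 on the astrocyte arrays, all 10 above background on every astrocyte array. All 8 neuron arrays lie on slide 1 and were scanned in a session of their own, and the 8 astrocyte arrays lie on slides 2 and 3, so cell type cannot be told apart from slide or scan session. For the astrocytes the deposited files disagree on treatment. By the scanner files, vehicle is slide 2 and Klotho is slide 3, but 6 of the 8 astrocyte columns of the authors' value table equal the array of another sample, 4 of them one of the other treatment, which makes vehicle slide column 3 and Klotho column 4. Astrocyte array names below follow the scanner files, and each comparison of Klotho with vehicle within astrocytes is given under both assignments.

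The promoters of 4 members whose levels parted by cell type serve as a picture of the genes concerned: Col1a2 and Col3a1, which were higher in astrocyte cultures, and Ncan and Vcan, which were higher in neuron cultures. Each is the 250 bases before the RefSeq start on GRCm38.p6, read 5′ to 3′ on the strand of the gene. Capitals mark matches to 3 promoter motifs, searched on both strands: TATAAA, found in many core promoters, CCAAT, known as a binding motif of NF-Y, and GGGCGG, known as one of Sp1. No matches overlap in these windows.
Col1a2: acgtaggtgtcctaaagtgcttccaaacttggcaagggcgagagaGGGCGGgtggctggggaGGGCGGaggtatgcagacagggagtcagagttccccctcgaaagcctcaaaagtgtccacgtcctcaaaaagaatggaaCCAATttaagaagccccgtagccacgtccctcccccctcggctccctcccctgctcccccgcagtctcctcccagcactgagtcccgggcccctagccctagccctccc
Col3a1: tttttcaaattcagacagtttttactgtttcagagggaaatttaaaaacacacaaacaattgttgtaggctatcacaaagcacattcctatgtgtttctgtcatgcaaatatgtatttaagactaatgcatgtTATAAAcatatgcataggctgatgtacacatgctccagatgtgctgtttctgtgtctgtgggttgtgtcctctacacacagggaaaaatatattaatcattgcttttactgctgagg
Ncan: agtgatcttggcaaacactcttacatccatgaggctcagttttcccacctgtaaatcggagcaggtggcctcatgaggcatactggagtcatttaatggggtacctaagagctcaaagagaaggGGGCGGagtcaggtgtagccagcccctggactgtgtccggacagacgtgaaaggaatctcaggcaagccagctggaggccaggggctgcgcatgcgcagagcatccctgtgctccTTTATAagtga
Vcan: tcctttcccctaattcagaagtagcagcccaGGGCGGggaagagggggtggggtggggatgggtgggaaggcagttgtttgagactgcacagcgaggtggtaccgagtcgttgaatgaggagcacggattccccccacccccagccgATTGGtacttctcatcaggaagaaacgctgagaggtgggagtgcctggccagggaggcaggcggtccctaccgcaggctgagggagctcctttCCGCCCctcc
The Col1a2 window lies at chr6:4505368-4505617, forward strand, and that of Col3a1 at chr1:45311288-45311537, forward strand. For Ncan it is chr8:70120845-70121094, reverse strand, and for Vcan chr13:89742513-89742762, reverse strand. Col1a2 holds 1 CCAAT and 2 GGGCGG matches and 62% G or C. Col3a1 holds 1 TATAAA match and 35.2% G or C, Ncan 1 TATAAA and 1 GGGCGG match with 54.4%, and Vcan 1 CCAAT and 2 GGGCGG matches with 62.4%. Thus neither pair shares a set of matches. RefSeq windows were matched for 32 of the 47 members, 38 windows in all. TATAAA occurred in 9 of these windows (23.7%, against 12.4% of all 32851 windows), CCAAT in 13 (34.2% against 33.8%) and GGGCGG in 24 (63.2% against 32.7%). The RefSeq starts used for Col4a1 and Col4a2, which encode the 2 main chains of type IV collagen, lie 21 bases apart on opposite strands. A match of letters is a description and not a binding site.

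Most matrix genes were higher in astrocyte than in neuron cultures. Between vehicle cultures 28 of the 46 members tested (all but Lox) were called higher and 11 lower in astrocytes, at a Benjamini-Hochberg adjusted p below 0.05 in limma over all features. By comparison 21.5% of all 30544 features tested were called higher and 29.9% lower, 51.4% in all. The members' median log2 change was 1.72, against -0.21 over all features. Between Klotho cultures 32 of 47 were called higher and 8 lower, against 27.4% and 35.5% of 27803 features (62.9% in all), with a member median of 2.62 (2.51 with dim members at their bound) and a median of -0.18 over all features. The 2 comparisons share no array. In both, 28 members were higher and 8 lower, and none changed sides. Col4a1, Postn, Lox and Adamts5 were called higher between Klotho cultures alone, and Fbln1, Lum and Lama1 were called lower between vehicle cultures alone; whether these changes differ between treatments is tested with the interaction below. Col4a2, Col6a1, Col6a2 and Timp2 passed in neither. For the called members given with every array below, the limma adjusted p ran from 9.55e-08 (Ccn2) to 0.0102 (Bcan) between vehicle cultures and from 5.17e-09 (Ltbp2) to 0.016 (Fbln2) between Klotho cultures. Where arrays of the cell types are said below not to overlap, this rests on the same values as the calls and is no separate result. The share of all features without overlap between the cell types is not given here. Fewer cells of a type and less RNA per cell cannot be told apart in such bulk samples.

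**Figure D1:**
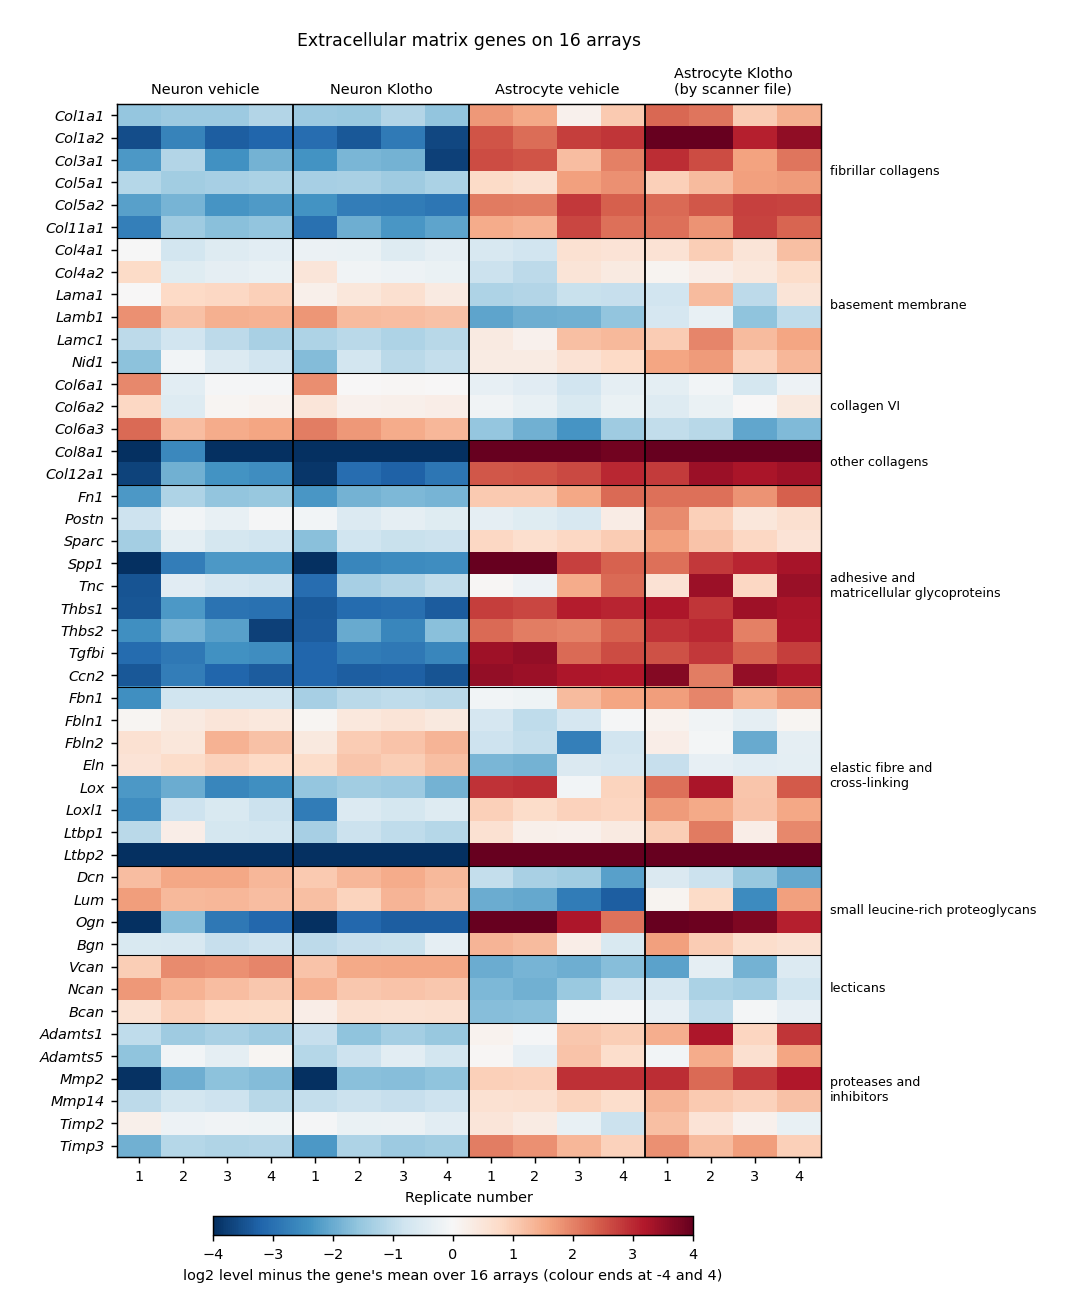
Colour shows each gene's log2 level minus its own mean over the 16 arrays (columns, by group and replicate number), for the 47 members (rows, by role). Fibrillar collagens and matricellular genes are red in the astrocyte columns, lecticans are red in the neuron columns, and replicate 1 stands apart among the neurons.

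The 6 fibrillar collagens, chains of the banded fibres of connective tissue, were all higher in astrocyte cultures in both comparisons. Col1a2, the alpha 2 chain of type I collagen, read -3.68, -2.82, -3.42 and -3.31 in neuron vehicle replicates 1 to 4, -3.17, -3.52, -2.96 and -3.79 with Klotho, 2.38, 2.12, 2.65 and 2.74 in the astrocyte vehicle arrays and 4.37, 3.94, 2.99 and 3.41 in the astrocyte Klotho arrays. Its change was 5.78 ± 0.25 (log2, SE) between vehicle and 7.04 ± 0.32 between Klotho cultures, and all 8 astrocyte arrays lay above all 8 neuron arrays. Col5a2, a chain of type V collagen that seeds such fibres, read -3.06, -2.76, -3.24 and -3.16 in neuron vehicle replicates 1 to 4, -3.28, -3.66, -3.70 and -3.76 with Klotho, 1.19, 1.15, 1.95 and 1.50 in the astrocyte vehicle arrays and 1.38, 1.60, 1.86 and 1.83 in the astrocyte Klotho arrays, with changes of 4.50 ± 0.24 and 5.27 ± 0.19. The other 4 had smaller changes, from 2.50 ± 0.30 for Col5a1 to 4.03 ± 0.38 for Col3a1 between vehicle cultures, and every member of the group was above background on all neuron vehicle arrays. Type III collagen (Col3a1) passed the background flag on 1 of the 4 neuron Klotho arrays. Limma adjusted p values of the group ran from 3.19e-07 (Col1a2) to 0.000233 (Col1a1) between vehicle cultures.

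Both other collagens were higher in astrocytes in both comparisons as well. Col8a1, a short-chain network collagen, read -8.24, -5.12, -6.95 and -6.80 in neuron vehicle replicates 1 to 4, -7.41, -7.25, -7.28 and -7.76 with Klotho, 1.90, 1.94, 1.97 and 1.30 in the astrocyte vehicle arrays and 2.64, 1.98, 2.34 and 1.88 in the astrocyte Klotho arrays. It was above background on 1 of 4 neuron vehicle arrays and on no neuron Klotho array, so its change of 8.55 ± 0.57 between vehicle cultures rests on dim neuron values, and between Klotho cultures it was at least 212-fold higher in astrocytes. This bound sets the astrocyte mean against the lowest signal well above background on each neuron array. Col12a1, a collagen that decorates fibril surfaces, read -4.62, -2.82, -3.30 and -3.39 in neuron vehicle replicates 1 to 4, -4.79, -3.96, -4.16 and -3.80 with Klotho, 1.59, 1.62, 1.74 and 2.12 in the astrocyte vehicle arrays and 1.89, 2.51, 2.36 and 2.49 in the astrocyte Klotho arrays, with changes of 5.30 ± 0.37 and 6.49 ± 0.25. Collagen VI, whose 3 chains build beaded microfibrils, did not follow. Col6a3 was lower in astrocytes: it read -0.70, -1.71, -1.46 and -1.37 in neuron vehicle replicates 1 to 4, -0.90, -1.22, -1.48 and -1.63 with Klotho, -4.50, -4.88, -5.32 and -4.38 in the astrocyte vehicle arrays and -3.93, -4.07, -5.05 and -4.73 in the astrocyte Klotho arrays, with changes of -3.46 ± 0.30 and -3.13 ± 0.29, and passed the background flag on 3 of the 4 astrocyte vehicle arrays. Its partner chains Col6a1 (-0.83 ± 0.47 between vehicle cultures) and Col6a2 (-0.47 ± 0.29) were not called.

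Of the 9 adhesive and matricellular glycoproteins, 8 were higher in astrocytes between vehicle and all 9 between Klotho cultures. Ccn2, a secreted target of mechanical and TGF-beta signals, read 0.63, 1.24, 0.83 and 0.67 in neuron vehicle replicates 1 to 4, 0.82, 0.70, 0.75 and 0.54 with Klotho, 7.51, 7.42, 7.25 and 7.21 in the astrocyte vehicle arrays and 7.68, 6.04, 7.52 and 7.26 in the astrocyte Klotho arrays. The change was 6.51 ± 0.20 and 6.42 ± 0.33, and every astrocyte array lay above every neuron array. Thbs1, thrombospondin 1, which astrocytes release to promote synapse formation, read -0.81, 0.31, -0.35 and -0.39 in neuron vehicle replicates 1 to 4, -0.74, -0.47, -0.42 and -0.73 with Klotho, 5.37, 5.28, 5.75 and 5.65 in the astrocyte vehicle arrays and 5.85, 5.45, 6.0 and 5.87 in the astrocyte Klotho arrays, with changes of 5.82 ± 0.26 and 6.38 ± 0.19. Its relative Thbs2 read -6.35, -5.76, -6.06 and -7.65 in neuron vehicle replicates 1 to 4, -7.23, -5.92, -6.51 and -5.58 with Klotho, -1.62, -1.85, -1.90 and -1.55 in the astrocyte vehicle arrays and -1.0, -0.88, -1.88 and -0.67 in the astrocyte Klotho arrays; it was above background on 2 neuron vehicle arrays and on no neuron Klotho array, and its changes were 4.72 ± 0.38 and at least 20.4-fold. For these 3 genes the neuron and astrocyte arrays did not overlap. Tgfbi, an integrin-binding protein induced by TGF-beta, read -2.68, -2.46, -2.03 and -2.10 in neuron vehicle replicates 1 to 4, -2.78, -2.40, -2.47 and -2.23 with Klotho, 3.79, 3.91, 2.67 and 3.0 in the astrocyte vehicle arrays and 2.94, 3.21, 2.75 and 3.17 in the astrocyte Klotho arrays, with changes of 5.66 ± 0.32 and 5.49 ± 0.19. Spp1, osteopontin, a glycoprotein that microglia and macrophages also make, read -5.54, -3.17, -2.69 and -2.71 in neuron vehicle replicates 1 to 4, -5.11, -3.03, -2.93 and -2.89 with Klotho, 3.65, 3.87, 2.31 and 1.96 in the astrocyte vehicle arrays and 1.81, 2.42, 2.63 and 2.89 in the astrocyte Klotho arrays, with changes of 6.47 ± 0.71 and 5.93 ± 0.49. Both neuron replicate 1 arrays lay below all other neuron arrays for Spp1. The rest of the group had smaller changes. Fibronectin (Fn1) changed by 3.12 ± 0.34, Sparc by 1.65 ± 0.23, and tenascin C (Tnc) by 2.24 ± 0.78 between vehicle cultures. Periostin (Postn) alone did not pass there, at 0.02 ± 0.27 (limma adjusted p = 0.957), and was called between Klotho cultures at 1.35 ± 0.31 (limma adjusted p = 0.00354).

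The elastic fibre and cross-linking genes split. Ltbp2, a protein of elastic microfibrils, had the largest fitted change of the members, which is not ranked against Col8a1, dim in neurons and with only a bound between Klotho cultures. It read -4.34, -3.85, -4.28 and -4.19 in neuron vehicle replicates 1 to 4, -4.58, -4.26, -4.10 and -4.06 with Klotho, 4.92, 4.78, 5.60 and 6.37 in the astrocyte vehicle arrays and 6.0, 5.75, 5.63 and 6.37 in the astrocyte Klotho arrays, with changes of 9.58 ± 0.35 and 10.19 ± 0.22. Fbn1, which encodes the microfibril backbone fibrillin 1, Loxl1, a cross-linking oxidase, and Ltbp1, which tethers latent TGF-beta, were also higher, by 1.84 ± 0.53, 2.07 ± 0.39 and 0.90 ± 0.30 between vehicle cultures. Lox itself, lysyl oxidase, was above background on no neuron array and on 3 of 4 astrocyte vehicle arrays, so it was not tested there; between Klotho cultures it was at least 3.5-fold higher in astrocytes. Elastin and both fibulins were lower in astrocytes between vehicle cultures. Eln read -1.97, -1.79, -1.58 and -1.71 in neuron vehicle replicates 1 to 4, -1.77, -1.42, -1.54 and -1.30 with Klotho, -4.35, -4.39, -3.09 and -3.20 in the astrocyte vehicle arrays and -3.42, -2.83, -2.95 and -2.91 in the astrocyte Klotho arrays, with changes of -2.0 ± 0.34 and -1.52 ± 0.20. Fbln2, a fibulin of elastic fibres and basement membranes, read -0.87, -1.02, -0.06 and -0.30 in neuron vehicle replicates 1 to 4, -1.07, -0.45, -0.32 and -0.11 with Klotho, -2.30, -2.42, -4.21 and -2.24 in the astrocyte vehicle arrays and -1.19, -1.53, -3.49 and -1.82 in the astrocyte Klotho arrays, with changes of -2.23 ± 0.46 and -1.52 ± 0.46. Fbln1 differed less: it read 0.13, 0.39, 0.52 and 0.47 in neuron vehicle replicates 1 to 4, 0.12, 0.45, 0.54 and 0.44 with Klotho, -0.65, -0.98, -0.64 and -0.01 in the astrocyte vehicle arrays and 0.18, -0.12, -0.31 and 0.12 in the astrocyte Klotho arrays. Its change of -0.95 ± 0.24 was called between vehicle cultures, and that of -0.42 ± 0.19 was not between Klotho cultures (limma adjusted p = 0.0751).

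Among small leucine-rich proteoglycans, which bind collagen fibrils, 2 were higher and 2 lower in astrocyte vehicle cultures. Ogn, osteoglycin, read -4.55, -0.38, -1.54 and -1.82 in neuron vehicle replicates 1 to 4, -4.35, -1.83, -1.98 and -1.99 with Klotho, 5.52, 5.33, 4.55 and 3.49 in the astrocyte vehicle arrays and 5.82, 5.25, 5.05 and 4.44 in the astrocyte Klotho arrays, with changes of 6.79 ± 0.84 and 7.67 ± 0.55, and biglycan (Bgn) was higher by 1.32 ± 0.42 and 1.79 ± 0.26. Decorin went the other way: Dcn read 3.43, 3.72, 3.74 and 3.53 in neuron vehicle replicates 1 to 4, 3.23, 3.53, 3.69 and 3.47 with Klotho, 1.23, 0.88, 0.80 and 0.02 in the astrocyte vehicle arrays and 1.62, 1.32, 0.67 and 0.14 in the astrocyte Klotho arrays, with changes of -2.88 ± 0.27 and -2.54 ± 0.31, and no astrocyte array reached any neuron array. Lumican (Lum) was on no astrocyte vehicle array above background, and read -3.15, -3.51, -3.49 and -3.58 in neuron vehicle replicates 1 to 4, -3.61, -3.93, -3.45 and -3.59 with Klotho, -6.79, -6.85, -7.62 and -8.09 in the astrocyte vehicle arrays and -4.71, -4.04, -7.33 and -3.16 in the astrocyte Klotho arrays. Between vehicle cultures it was at least 7.12-fold higher in neurons; between Klotho cultures, where it passed the flag on 3 of 4 astrocyte arrays, the change was -1.16 ± 0.73 (limma adjusted p = 0.19) and the groups overlapped.

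By the brightest probe of each gene, all 3 lecticans were higher in neuron cultures in both comparisons. Versican, Vcan, read 1.78, 2.69, 2.61 and 2.74 in neuron vehicle replicates 1 to 4, 1.93, 2.29, 2.33 and 2.32 with Klotho, -1.19, -1.08, -1.15 and -0.91 in the astrocyte vehicle arrays and -1.34, 0.43, -1.10 and 0.24 in the astrocyte Klotho arrays, with astrocyte-minus-neuron changes of -3.54 ± 0.25 and -2.66 ± 0.40. Neurocan, Ncan, a lectican of nervous tissue, read 4.48, 4.14, 3.99 and 3.83 in neuron vehicle replicates 1 to 4, 4.14, 3.82, 3.88 and 3.81 with Klotho, 0.95, 0.84, 1.25 and 1.93 in the astrocyte vehicle arrays and 2.07, 1.48, 1.40 and 1.94 in the astrocyte Klotho arrays, with changes of -2.87 ± 0.28 and -2.19 ± 0.21. The neuron arrays lay above the astrocyte arrays for both genes without overlap. Brevican, Bcan, read 7.11, 7.44, 7.29 and 7.27 in neuron vehicle replicates 1 to 4, 6.76, 7.14, 7.12 and 7.14 with Klotho, 4.79, 4.82, 6.43 and 6.45 in the astrocyte vehicle arrays and 6.19, 5.50, 6.43 and 6.18 in the astrocyte Klotho arrays, with changes of -1.65 ± 0.42 and -0.96 ± 0.23. Its call is the least firm. A second Bcan probe, above background on all 16 arrays, changed by 0.00 between vehicle cultures and by 0.40, the other way, between Klotho cultures. With the mean of both probes the change was -0.83 (limma adjusted p = 0.0914) between vehicle and -0.28 (limma adjusted p = 0.314) between Klotho cultures.

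Basement membrane genes showed no common direction. Lamb1, the laminin beta 1 chain, read 2.80, 2.15, 2.41 and 2.37 in neuron vehicle replicates 1 to 4, 2.74, 2.24, 2.21 and 2.14 with Klotho, -1.11, -0.97, -0.95 and -0.60 in the astrocyte vehicle arrays and 0.31, 0.68, -0.62 and -0.04 in the astrocyte Klotho arrays, with changes of -3.34 ± 0.21 and -2.25 ± 0.28. Lama1, the alpha 1 chain found in the pial basement membrane, read -0.13, 0.68, 0.70 and 0.83 in neuron vehicle replicates 1 to 4, 0.07, 0.32, 0.50 and 0.23 with Klotho, -1.36, -1.30, -1.03 and -1.06 in the astrocyte vehicle arrays and -0.90, 1.14, -1.18 and 0.38 in the astrocyte Klotho arrays. It was lower in astrocytes between vehicle cultures (-1.71 ± 0.25) and not called between Klotho cultures (-0.42 ± 0.46), where astrocyte Klotho replicates 2 and 4 reached neuron levels. The partner chain Lamc1 (1.80 ± 0.30) and the linker nidogen 1 (Nid1, 1.28 ± 0.32) were higher in astrocytes, so the laminin chains of the list moved in opposite directions. Col4a1 (0.36 ± 0.36) and Col4a2 (-0.16 ± 0.44) were not called between vehicle cultures, and Col4a1 was higher between Klotho cultures (1.17 ± 0.20).

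Of the 6 proteases and inhibitors, 4 were higher in astrocyte vehicle cultures and none lower. Mmp2, gelatinase A, read -5.64, -3.67, -3.35 and -3.42 in neuron vehicle replicates 1 to 4, -6.39, -3.36, -3.40 and -3.33 with Klotho, -0.74, -0.78, 1.21 and 1.21 in the astrocyte vehicle arrays and 1.24, 0.55, 1.12 and 1.50 in the astrocyte Klotho arrays, with changes of 4.24 ± 0.67 and 5.22 ± 0.64. The replicate 1 arrays were low among the neurons, and astrocyte vehicle replicates 1 and 2 were low among the astrocytes. Its activator Mmp14, a membrane protease, changed by 1.63 ± 0.18, Adamts1, a protease of lecticans, by 1.82 ± 0.29, and Timp3, an inhibitor bound to the matrix, by 2.89 ± 0.30. Timp2 was at -0.0032 ± 0.31 (limma adjusted p = 0.994) by its brightest probe, whereas its second probe was at 2.40, so the 2 probes of this gene disagree. Adamts5 was at 0.90 ± 0.44 and not called.

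The machinery around these genes differed by cell type as well. Of the enzymes and chaperones of collagen biosynthesis, 16 of 23 tested were higher and 2 lower in astrocyte vehicle cultures. P3h2, a prolyl hydroxylase, was at least 52.1-fold higher, Pcolce, which enhances procollagen processing, changed by 5.33 ± 0.31, the hydroxylase subunit P4ha3 by 3.75 ± 0.27 and the lysyl hydroxylase Plod2 by 3.04 ± 0.24. Matrix receptors were called higher in 15 and lower in 2 of 23. The collagen receptors Ddr2 (4.70 ± 0.18), Ddr1 (3.33 ± 0.21) and integrin Itga1 (6.26 ± 0.32) were higher in astrocytes, and the syndecan Sdc3 was lower (-3.33 ± 0.28). Of 19 TGF-beta ligands, receptors and feedback genes, 13 were higher and 2 lower, among them the ligand Tgfb1 (4.20 ± 0.20), the coreceptor Tgfbr3 (3.38 ± 0.18) and the inhibitory Smad6 (6.22 ± 0.42). Genes of hyaluronan and perineuronal nets went the other way, with 1 of 11 higher and 6 lower. The link protein Hapln1 (-5.63 ± 0.61), the proteoglycan Cspg5 (-2.04 ± 0.24) and tenascin R (Tnr, -3.05 ± 0.41) were lower in astrocytes and the hyaluronidase Hyal1 was higher (2.25 ± 0.25). Other matrix proteases and inhibitors had 11 higher and 5 lower of 21. The membrane proteases Mmp24 (-7.35 ± 0.35) and Mmp17 (-4.60 ± 0.22) were lower, and Mmp19 and the plasminogen activator Plau were at least 13.3-fold and 4.42-fold higher. Of 38 other structural matrix genes, 25 were higher and 6 lower, with Nid2 at 5.59 ± 0.23, fibromodulin (Fmod) at 7.22 ± 0.34, Ecm1 at 3.93 ± 0.28 and Efemp2 at 3.22 ± 0.25. Between Klotho cultures the counts higher and lower were 17 and 2 of 23, 19 and 2 of 23, 13 and 1 of 19, 4 and 5 of 10, 13 and 5 of 19, and 28 and 5 of 35 in the same order of lists.

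Markers of other matrix-producing cells differed between the cultures too. The 16 fibroblast and meningeal markers averaged -5.26 to -4.64 per neuron array and -3.50 to -3.06 per astrocyte array; of the 10 tested between vehicle cultures 7 were higher and 1 lower in astrocytes, and Tbx18 and Dpt were above background on no array of either. The 10 mural markers averaged -4.08 to -3.20 and -1.07 to -0.58, and all 6 tested were higher. The 10 endothelial markers averaged -5.37 to -4.83 and -4.64 to -3.99, with 2 higher and 1 lower of 5 tested. Col13a1 is both a fibroblast marker and a structural matrix gene in these lists. The part of such cells, and of the microglia, in the members' differences was not tested.

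In neurons, no member was called between Klotho and vehicle. Col8a1, Tnc, Thbs2 and Lox were too dim in neurons to be tested. Of the other 43, 0 passed limma's test after adjustment, against 0.125% of 28847 features (0 higher and 36 lower), and 1 had an unadjusted p below 0.05, against 1188 features. The changes were small: 12 were above 0 and 31 below, with a median of -0.13 against -0.03 over all features. Col5a2 had the smallest p, at -0.55 ± 0.15 (limma adjusted p = 0.988). All 4 Klotho arrays lay below the 4 vehicle arrays (values above), as did 2.71% of all features. Next in order were Ltbp1, Bcan, Eln, Col12a1 and Lum. Ltbp1 read -3.39, -2.04, -3.0 and -3.03 in vehicle and -3.62, -3.15, -3.32 and -3.44 in Klotho neurons, a change of -0.51 ± 0.27 with overlap. The other 4 also overlapped, with changes of -0.24 ± 0.13 for Bcan, 0.25 ± 0.14 for Eln, -0.64 ± 0.38 for Col12a1 and -0.21 ± 0.15 for Lum.

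The other matrix lists gave 1 call in neurons. Vitronectin (Vtn), an adhesive glycoprotein abundant in blood, was above background on 4 vehicle and 0 Klotho arrays and at least 3.4-fold lower with Klotho (fitted change -2.05 ± 0.23, limma adjusted p = 0.0132). Fewer spots were well above background on the neuron Klotho arrays (57.9% to 62.0%) than on the neuron vehicle arrays (65.0% to 67.3%). The part of this difference in the loss of the flag was not tested. None of the 21 collagen biosynthesis genes, 22 matrix receptors, 17 TGF-beta genes, 11 hyaluronan genes or 15 other proteases tested was called. Vehicle neurons filled row 1 and Klotho neurons row 2 of their slide, so Klotho and row cannot be told apart there.

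The neuron arrays numbered 1, which share a slide column, stood apart for many members. For 23 of the 47 members both replicate 1 arrays lay below the other 3 arrays of their group, for 9 both lay above, and 15 were mixed. Among the 43 members tested in neurons the shares were 51.2% below and 20.9% above, against 29.4% and 31.6% of all 28847 features. Ogn, Spp1, Tnc, Mmp2 and Loxl1 were low there; for Tnc the values were -6.76, -3.77, -4.0 and -4.08 in vehicle and -6.37, -4.63, -4.48 and -4.30 in Klotho neurons. Collagen VI was high: Col6a1 read 2.62, 0.29, 0.65 and 0.65 and 2.55, 0.73, 0.73 and 0.70, and Col6a2 and Col6a3 went the same way. The neuron marker list averaged 4.63 and 4.58 on these 2 arrays and 3.99 to 4.16 on the other 6, and the fibroblast list -5.21 and -5.26 against -4.95 to -4.64. Most other marker lists were also lower on both: astrocyte markers at 1.99 and 1.76 (others 2.34 to 2.68), microglia at -2.56 and -2.92 (-2.02 to -1.42), oligodendrocyte lineage at 1.05 and 1.01 (1.49 to 1.76), mural at -4.06 and -4.08 (-3.70 to -3.20) and ependymal at -2.98 and -3.56 (-2.51 to -1.89). The endothelial list lay within the range of the other 6. Their part in the result was not tested. Without both arrays no member was called for Klotho in neurons, and without the vehicle array and astrocyte vehicle replicate 1 the count between the cell types was 26 higher and 11 lower.

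In astrocytes, taken by the scanner files, most members read higher with Klotho but none was called. By this assignment Klotho and slide cannot be told apart. Lum was too dim to be tested, and limma called 0 of the other 46 members and 0% of 27145 features; 10 members and 966 features had an unadjusted p below 0.05. Of the 46, 42 had a change above 0, with a median of 0.53 against -0.01 over all features. Other markers on the same arrays read lower: 8 of 10 oligodendrocyte lineage markers (median -0.35, 3 with an unadjusted p below 0.05 in limma, none called) and 8 of 10 microglia markers (median -0.34, none called) had a change below 0. The oligodendrocyte list averaged 0.21 to 0.59 on the vehicle and -0.45 to 0.16 on the Klotho arrays, and the microglia list averaged 2.92 to 3.37 on the vehicle and 2.33 to 3.11 on the Klotho arrays. By value table the medians were -0.28 and 0.01. Their part in the members' result was not tested. For Col1a2, Nid1, Postn, Loxl1 and Mmp14 the 4 Klotho arrays lay above the 4 vehicle arrays, as for 0.998% of features. The smallest p belonged to Col1a2, whose values are given above, with a change of 1.20 ± 0.32 (limma adjusted p = 1). Nid1 read -1.33, -1.34, -1.07 and -0.87 in vehicle and -0.10, 0.03, -0.74 and -0.33 in Klotho arrays, a change of 0.87 ± 0.24. Postn read -3.56, -3.69, -3.84 and -2.92 and -1.31, -2.25, -2.77 and -2.58 (1.28 ± 0.36). Klotho replicate 1 was the highest for Postn and for Col1a2. Loxl1 read 1.30, 1.08, 1.26 and 1.19 and 2.04, 1.85, 1.49 and 1.88 (0.60 ± 0.20). Lamb1 (0.99 ± 0.30) and Adamts1 (1.57 ± 0.55) overlapped; Adamts1 read 1.96, 1.76, 2.90 and 2.79 and 3.27, 5.07, 2.67 and 4.68.

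Taken row by row, calls came in row 1 alone, but the difference between the rows was not shown. Within row 1 (2 arrays against 2) 4 members were called higher and 1 lower, against 1.15% of features: Fbn1 at 1.95 ± 0.22, Col1a2 at 1.90 ± 0.24, Mmp2 at 1.66 ± 0.27 and Nid1 at 1.30 ± 0.21, and Spp1 at -1.65 ± 0.27 (limma adjusted p 0.0334 to 0.0477). Within row 2 none of the members and 0% of features were called, and the same genes were at 0.16 ± 0.22, 0.50 ± 0.24, 0.10 ± 0.27, 0.44 ± 0.21 and 0.63 ± 0.27. The member median was 0.72 in row 1, with 40 of 46 above 0, and 0.25 in row 2, with 41 of 46 above 0. The difference between the rows in this change was called by limma for no member and for 0.00358% of features.

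Under the value table's assignment the same 8 arrays gave another picture. Here Klotho and slide column cannot be told apart. None of 46 members and 0% of 27221 features passed in limma, 1 member and 623 features had an unadjusted p below 0.05, 30 members lay above 0, and the median was 0.19 against -0.04 over all features. Leaving out 1 array moved that median to between -0.01 (without scanner file vehicle replicate 1) and 0.34 (without vehicle replicate 2), and by over 1.5 times for every array but Klotho replicate 3. Vcan had the smallest p, with a change of 0.87 ± 0.37 (limma adjusted p = 1), and its groups did not overlap, as for 0.544% of features in this direction. Tnc (1.50 ± 0.77), Lama1 (0.91 ± 0.52), Col8a1 (-0.44 ± 0.26), Timp3 (-0.46 ± 0.28) and Ccn2 (-0.51 ± 0.32) followed, all with overlap. Tnc read -3.26, -3.50, -1.83 and -1.04 on slide 2 and -2.72, 0.10, -2.49 and 0.14 on slide 3, and Timp3 6.62, 6.42, 5.89 and 5.51 and 6.40, 5.84, 6.24 and 5.53, each in the order row 1 column 3, row 1 column 4, row 2 column 3, row 2 column 4. Col1a2 was at -0.05 ± 0.52, Postn at 0.01 ± 0.56 and Loxl1 at -0.02 ± 0.29, and these were near 0, whereas Nid1 was at 0.18 ± 0.37, Lamb1 at 0.36 ± 0.43 and Adamts1 at 0.87 ± 0.71. These are the 6 genes with the smallest p by scanner file. Members above 0 numbered 20 within row 1 (where 0.00367% of features were called), 32 within row 2, 24 within slide 2 and 30 within slide 3, and limma called no member in any of these.

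**Figure D2:**
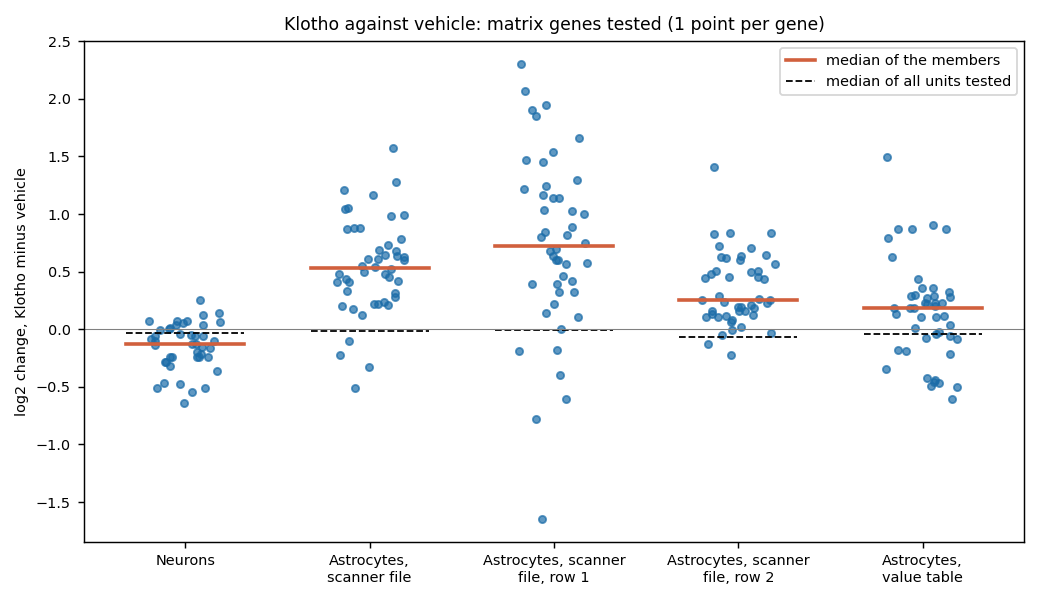
Each point is the log2 change of 1 member, Klotho minus vehicle, in neurons and in astrocytes by scanner file (all arrays, row 1, row 2) and by value table; the orange bar is the members' median and the dashed bar that of all units tested (named genes and unnamed probes). The orange bar lies above the dashed bar in astrocytes, at 0.53, 0.72 and 0.25 by scanner file and 0.19 by value table, and below it in neurons, at -0.13.

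Targets of NF-kappaB, the transcription factor of inflammatory signalling, also read higher on most astrocyte Klotho arrays. The mean of the 22 target genes was -0.55, -0.34, -2.20 and -1.74 on the vehicle arrays and 2.50, 4.59, -0.73 and 4.07 on the Klotho arrays. The mean of the 47 members was 0.80, 0.69, 0.83 and 0.96, and 1.45, 1.59, 1.03 and 1.54, on the same arrays. Klotho replicate 3 was thus the lowest Klotho array for both. By the scanner files all 20 target genes tested had a change above 0, with a median of 4.04 and no call, and by the value table all 19 tested did, with a median of 1.83 and no call. Their part in the members' result was not tested. Among the pathway lists by scanner file, Has2, a hyaluronan synthase, was at 5.68 ± 1.52, the proteases Mmp13 at 3.31 ± 0.94 and Adamts4 at 3.07 ± 0.94, and the microfibril gene Mfap4 at 1.17 ± 0.31. None of these lists had a call; 8 of 19 other proteases, 4 of 22 collagen biosynthesis genes, 4 of 35 structural genes, 3 of 23 receptors, 1 of 19 TGF-beta genes and 1 of 10 hyaluronan genes had an unadjusted p below 0.05 in limma. By scanner file 20 of 22 collagen biosynthesis genes had a change above 0 (median 0.29), against 5 of 22 by value table (-0.19). For the receptors it was 19 against 9 of 23 (medians 0.42 and -0.11), for the TGF-beta genes 10 against 7 of 19 (0.0038 and -0.05), and for the hyaluronan genes 7 against 1 of 10 (0.32 and -0.36). The other proteases had 14 against 8 of 19 (0.59 and -0.19) and the structural genes 24 against 18 of 35 (0.22 and 0.01). By value table Has2 was at 2.76 ± 2.26, and none of these lists had a call, with 1, 1, 0, 1, 1 and 3 genes at an unadjusted p below 0.05 in limma in the order just given.

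**Figure D3:**
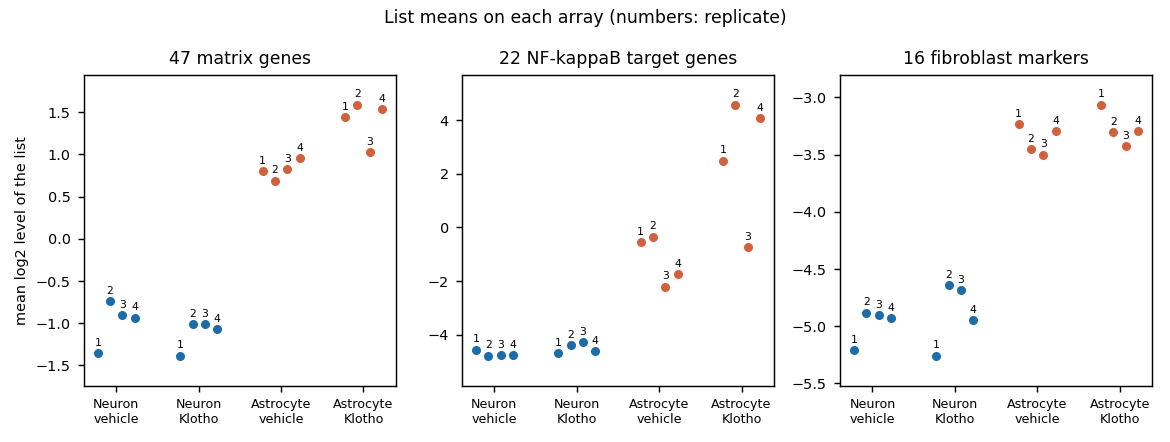
Points give the mean log2 level of each list on each array, numbered by replicate, for the 47 matrix genes (left), 22 NF-kappaB targets (middle) and 16 fibroblast markers (right). Astrocyte Klotho arrays 1, 2 and 4 lie above array 3 in the first and second panels, and the fibroblast marker means of the treatments overlap.

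The Klotho change was also compared between the cell types over all 16 arrays, with the scanner files' assignment. No member was called of 47 in limma, against 0.0749% of 30696 features (0.0684% higher and 0.00652% lower in astrocytes), and 12 members and 1496 features had an unadjusted p below 0.05. The difference was above 0 for 42 members, with a median of 0.69 against 0.02 over all features. With the deposited value table and its assignment it was above 0 for 36 of 47 members, with a median of 0.0725 in its units. Smallest in p were Postn (1.33 ± 0.42), Lum (2.74 ± 0.87), Col1a2 (1.26 ± 0.41), Lamb1 (1.09 ± 0.36), Ltbp1 (1.50 ± 0.50) and Nid1 (1.23 ± 0.43), with limma adjusted p between 0.788 and 0.868. Without astrocyte Klotho replicate 3, Lum was called at 3.58 (limma adjusted p = 0.00368); on that array and on all vehicle astrocyte arrays Lum was not well above background. Col4a1, Postn, Lox and Adamts5, and Fbln1, Lum and Lama1, which were called between the cell types at one treatment alone, were thus not shown to differ between treatments.

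More members were called between the rows of the astrocyte slides than between treatments. Row 2 against row 1, with slide and slide column as terms, gave 5 members higher and 7 lower of 46 tested, against 48.4% of 27966 features (6990 higher and 6554 lower). The members' share of 12 in 46 was therefore below that of all features. Each row holds all 4 slide and column positions. By the scanner files row 1 holds replicates 1 and 2 of both treatments and row 2 holds replicates 3 and 4. Slide row and replicate number thus cannot be told apart, and the rows may differ in culture as well as in position. The median change was -0.03, against 0.04.

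Lower in row 2 were 3 small leucine-rich proteoglycans, 2 fibrillar collagens, lysyl oxidase and an inhibitor. Timp2 read 8.14 and 8.0 on slide 2 and 8.86 and 8.21 on slide 3 in row 1 and 7.38 and 6.80 on slide 2 and 7.83 and 7.36 on slide 3 in row 2, a change of -0.96 ± 0.16. Ogn read 5.52 and 5.33 on slide 2 and 5.82 and 5.25 on slide 3, then 4.55 and 3.49 on slide 2 and 5.05 and 4.44 on slide 3 (-1.10 ± 0.22). Rows did not overlap in either gene. Dcn read 1.23 and 0.88 on slide 2 and 1.62 and 1.32 on slide 3, then 0.80 and 0.02 on slide 2 and 0.67 and 0.14 on slide 3 (-0.85 ± 0.17). Bgn read -1.06 and -1.14 on slide 2 and -0.79 and -1.41 on slide 3, then -2.16 and -3.04 on slide 2 and -1.72 and -1.83 on slide 3 (-1.09 ± 0.24). Every small leucine-rich proteoglycan tested was thus lower in row 2. Col1a1 read 0.85 and 0.62 on slide 2 and 1.42 and 1.26 on slide 3, then -0.71 and 0.18 on slide 2 and 0.15 and 0.55 on slide 3 (-1.0 ± 0.22). Col3a1 read -0.29 and -0.38 on slide 2 and 0.05 and -0.29 on slide 3, then -1.68 and -0.90 on slide 2 and -1.30 and -0.77 on slide 3 (-0.94 ± 0.22). Row 2 was lower for these fibrillar chains without overlap. Lox, the one gene of the 7 whose rows overlapped, read -3.09 and -3.02 on slide 2 and -3.78 and -2.69 on slide 3, then -6.08 and -5.09 on slide 2 and -4.85 and -3.51 on slide 3 (-1.74 ± 0.37). Limma adjusted p of the 7 lay between 0.00683 and 0.0135. The calls and the lack of overlap between rows rest on the same values, so the overlap is no separate result. The share of all features without overlap between rows is not given here.

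Higher in row 2 were 3 collagens, brevican and gelatinase A. Col5a1 read 1.82 and 1.67 on slide 2 and 1.98 and 2.31 on slide 3 in row 1 and 2.69 and 2.87 on slide 2 and 2.69 and 2.76 on slide 3 in row 2 (0.81 ± 0.17). Col4a2 read 0.20 and 0.04 on slide 2 and 1.19 and 1.34 on slide 3, then 1.60 and 1.44 on slide 2 and 1.49 and 1.80 on slide 3 (0.89 ± 0.25). These 2 collagens had rows without overlap. Col11a1 read 1.43 and 1.34 on slide 2 and 2.17 and 1.74 on slide 3, then 2.64 and 2.16 on slide 2 and 2.65 and 2.27 on slide 3 (0.76 ± 0.18). Bcan read 4.79 and 4.82 on slide 2 and 6.19 and 5.50 on slide 3, then 6.43 and 6.45 on slide 2 and 6.43 and 6.18 on slide 3 (1.05 ± 0.28). Mmp2 read -0.74 and -0.78 on slide 2 and 1.24 and 0.55 on slide 3, then 1.21 and 1.21 on slide 2 and 1.12 and 1.50 on slide 3 (1.19 ± 0.35). For all 5 genes the 2 row 1 arrays of slide 2 were the lowest of the 8. Within slide 2 the counts were 10 higher and 8 lower (50.5% of features called), and within slide 3 they were 0 and 0 (8.2% of features). The difference of the row contrast between the slides was called by limma for no member and for 0.00358% of features, so it was not shown. This is the contrast given above for Klotho between rows. When arrays were scaled on their medians the median of all features shifted to -0.40 and the counts became 0 higher and 14 lower, so the 5 higher calls were lost on that scale. With quantile normalization the counts were 11 and 8. The NF-kappaB list had 0 higher and 6 lower of 19, and its part in the row difference was not tested.

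**Figure D4:**
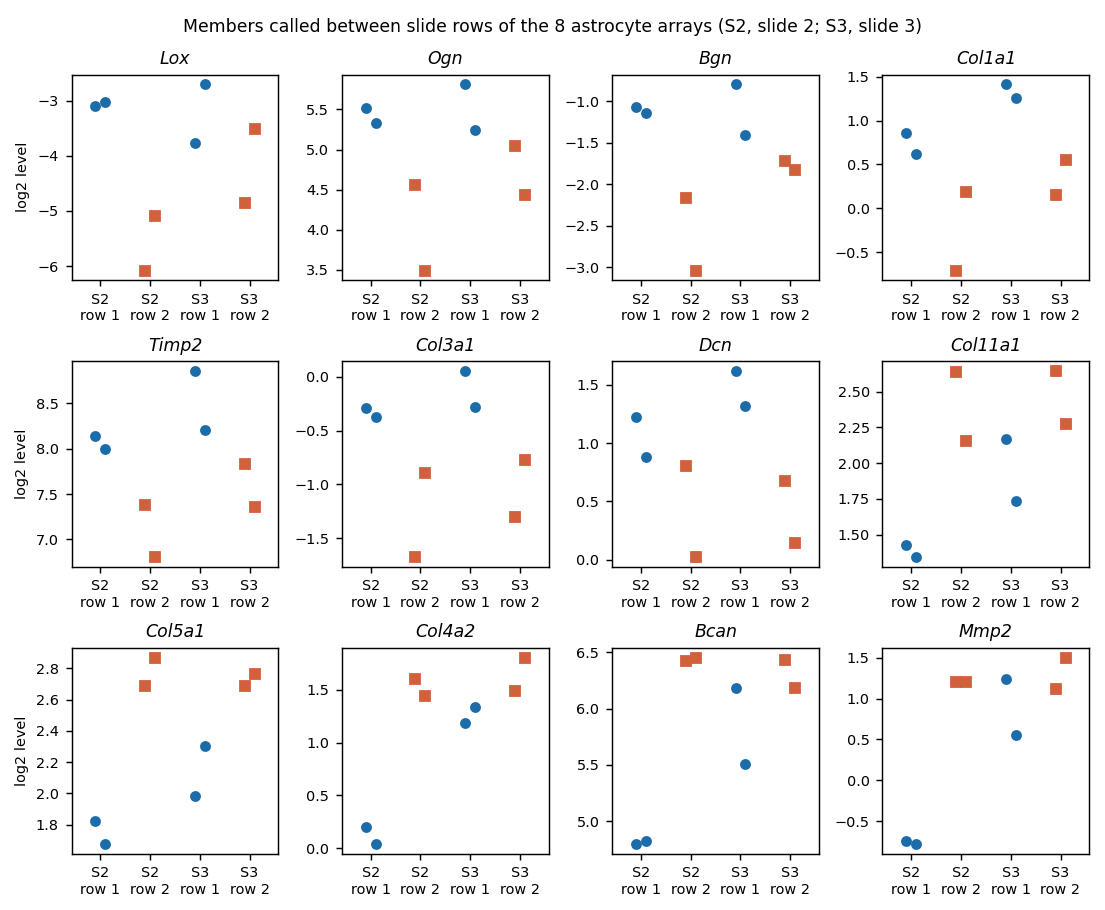
Each panel shows the log2 level of 1 member on the 8 astrocyte arrays by slide (S2, S3) and row, row 1 as blue circles and row 2 as orange squares, with column 3 to the left of column 4. The 7 members from Lox to Dcn are lower in row 2 and the other 5 are higher, most of all on slide 2 for Col4a2, Bcan and Mmp2.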

How the data were processed

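RNA from 16 cultures (200 ng each, labelled with Cy3) was hybridised to 1-colour Agilent mouse arrays, 1 array per sample. Per the file headers, the authors' scanner files came from Feature Extraction 12.0.3.1 (protocol GE1_1200_Jun14) and hold each spot's processed intensity, background-subtracted by that software, with flags that mark spots near background, saturated or uneven. The authors' value table holds a score per probe, with mean near 0 and SD near 1 in each column; its scale, centring and unit are not given in the sources used here, and its values are printed only as an alternative, in its own units.

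Processed intensities were taken to log2 and centred on each array's 75th percentile of the 59305 transcript spots; spots of 1 probe were averaged. Of 55681 probes, 28331 (50.9%) were named through their RefSeq accession. The features tested were the brightest probe of each of 21368 symbols and every unnamed probe, provided that each array of 1 or more compared groups had the spot well above background. Tests were limma 3.58.1 (lmFit and eBayes in R 4.3.3, two-sided) with Benjamini-Hochberg adjustment over all features and a threshold of 0.05; each change is given with its moderated SE. The method was tested on simulated data. The precision is limited by 4 arrays per group.

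Values on every array are given for up to 12 called members with the largest change in each direction between cell types, and for the called members, or the 6 with the smallest p, in the other comparisons; up to 4 genes of each other list are named. One such gene is not reported here. The 47 members and all gene lists were chosen with earlier results of these data known.

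The planned normexp alternative used median in place of mean spot signals, which were not used here. Within a cell type, same-numbered arrays share a slide column, and in astrocytes, by the scanner files, also a slide row. Their deviations from the group means correlated over 22544 features: 0.81, 0.21, 0.57 and 0.48 in neurons and 0.78, 0.17, 0.59 and 0.71 in astrocytes. A pairing of cultures cannot be told apart from the shared array position. The main tests do not use the numbers as pairs, and the fit with the replicate block is an alternative.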

Additional observations from a re-analysis of the deposited data

Results flagged for a closer look

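The sets examined were 183 combinations of a member and a group of 4 arrays, and besides these the members' mean in each group. Of all these sets, 25 had 1 array far from the other 3 by Dixon's criterion. If the sets were independent, chance would give about 1 in 20, or 9.15 of the 183. Members measured on the same array are not independent, so the 25 cannot be weighed against that number. The share of all features flagged in this way is not given here. Neuron Klotho replicate 1 was the far array 12 times and neuron vehicle replicate 1 11 times.

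On the low side, Spp1 read -5.54 in vehicle replicate 1 (others -3.17 to -2.69) and -5.11 in Klotho replicate 1 (others -3.03 to -2.89). Tnc read -6.76 and -6.37 there, Mmp2 -5.64 and -6.39, Loxl1 -2.14 and -2.45, and Vcan 1.78 and 1.93. These 5 genes were flagged in both groups. In vehicle replicate 1 alone, Fbn1 read -3.41 (others -1.76), Lama1 -0.13 and Timp3 2.66. In Klotho replicate 1 alone, Ogn read -4.35 (others -1.99 to -1.83), Sparc 6.04 and Bcan 6.76, and the mean of the members was -1.38 (others -1.07 to -1.01).

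On the high side, Col4a2 read 1.83 in vehicle and 1.55 in Klotho replicate 1, and Col6a1 2.62 and 2.55 (others at most 0.73). Lamb1 read 2.74 in Klotho replicate 1 and Timp2 7.87 in vehicle replicate 1. Col4a2 is thus a basement membrane gene that ran opposite to Lama1 on these arrays.

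The astrocyte arrays gave 2: Col8a1 read 1.30 in vehicle replicate 4 (others 1.90 to 1.97) and Fbln2 -4.21 in vehicle replicate 3 (others -2.42 to -2.24).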

How the results depend on the processing

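Of 148 counts of members called under other settings, 137 stayed within 1.5 times the value given. The 148 do not include the fits without 1 array, where 122 counts stayed and 6 moved. For Klotho in neurons, Klotho in astrocytes under either assignment, and the difference of the Klotho change between cell types, the value given is 0. A count that stayed there is a 0 that stayed 0. Between cell types no count left the range of 1.5 times. Leaving out 1 array gave 25 to 28 higher and 11 lower between vehicle cultures, and 32 to 33 and 8 to 9 between Klotho cultures. With the deposited value table and its assignment the counts were 29 and 10, and 31 and 8. Bcan lost its call with quantile normalization (-1.08 between vehicle and -0.47 between Klotho cultures), with the mean over probes (-0.83 and -0.28) and, between vehicle cultures, with the value table (-0.21 in its units). In neurons 1 member, the dim Lox, was called higher without the filter on dim probes, where 6917 features were called higher. Leaving out 1 array gave 0 calls for Klotho in neurons and, under both assignments, in astrocytes; the members above 0 then ranged from 41 to 43 by scanner file and 23 to 35 by value table. Within row 1 the scanner file assignment gave 4 higher and 1 lower. The value table turned the sign of Bcan in neurons (0.035, in its units). With its own assignment of the astrocyte arrays it also turned that of Col1a2 (-0.02) and Loxl1 (-0.0075). Under that assignment both genes were near 0 in the processed intensities as well, as given above. Between rows, 5 members were called higher and 7 lower; the higher count became 0 with median scaling, 11 with quantile normalization, 2 without the filter, 8 with all 16 arrays in 1 fit, 10 within slide 2 and 0 within slide 3, and the lower count became 14 with median scaling and 0 within slide 3. Leaving out 1 array gave 1 to 10 higher and 6 to 9 lower: 1 without vehicle replicate 1 or 4, 2 without vehicle replicate 2 or 3, and 10 without Klotho replicate 2. For the difference of the Klotho change between cell types, leaving out 1 array gave 0 to 1 calls, the 1 being Lum at 3.58 without astrocyte Klotho replicate 3; its limma adjusted p ranged from 0.00368 to 1.00 over the alternatives. With the replicate block, 27 members were higher and 11 lower between vehicle cultures, where the numbers do not pair the samples (correlations of -0.17 to 0.33 across cell types), and 0 were called for Klotho in neurons, in astrocytes under either assignment, or for the difference, so it moved no count by over 1.5 times. The cause of these changes was not tested. Members below background have only a bound.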
